A study of Mus musculus with 93 samples.

Results

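The integrated stress response (ISR) genes described here are Atf4, Atf3, Ddit3, Trib3, Chac1, Sesn2, Asns, Phgdh, Psat1, and Mthfd2, measured by bulk RNA-seq in livers of 7 inbred mouse strains on 2 diets. The members were given as a list of symbols and found in the count table by Ensembl identifier. All 10 had a row among the 53465 genes of the table, and all 10 passed the filter on low counts that left 19110 genes for testing. The 93 male mice were C57BL/6J (8 on CD, 8 on WD), DBA/2J (6, 7), A/J (5, 6), 129S1/SvImJ (7, 6), WSB/EiJ (6, 6), CAST/EiJ (7, 8), and PWK/PhJ (6, 7). None carried a transgene or an engineered allele according to the labels, and the first 4 strains are domesticated and the other 3 wild-derived. All mice moved to 30°C, their thermoneutral (TN) temperature, at 6 wk of age and were assigned at 7 wk to WD, a western-style diet with 40% of energy from fat, 17% from protein, and 43% from carbohydrate, or to CD, a control diet with 10%, 17%, and 73%. The diets ran for 17 wk, and livers were taken from fasted (4 h) mice aged 24 wk. WD-TN and CD-TN denote the groups on either diet.

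The ISR is a pathway by which cells slow protein synthesis under stress. Kinases that sense unfolded proteins in the endoplasmic reticulum, amino acid shortage, viral RNA, or heme deficiency phosphorylate the initiation factor eIF2, which lowers translation of most mRNAs but raises translation of Atf4, a transcription factor. ATF4 then drives genes for amino acid synthesis, transport, and tRNA charging, together with Atf3 and Ddit3 (CHOP), further transcription factors of the response. Because ATF4 is set mainly at the level of translation, an mRNA measurement reads its transcript and its targets and not the protein. In bulk liver RNA, fewer cells of a type and less RNA per cell cannot be told apart.

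Several members hold, near a transcription start, the element to which ATF4 binds with a C/EBP partner (the C/EBP-ATF response element, CARE). RefSeq gave promoter windows (GRCm38.p6, 250 bases before to 50 bases after a start) for 10 of 10 members. The CARE core TGATGNAA, or its reverse complement TTNCATCA, occurred in the windows of 4 members, Atf3, Chac1, Trib3, and Asns, and in 4.51% of 27025 genes with such windows. A second element, TGACGTNA or TNACGTCA, which is like the cAMP response element that ATF and CREB factors bind, occurred in Atf3 alone among the members and in 3.36% of genes. These 4 promoters are shown because they belong to members with different diet responses. Each is read 5′ to 3′ on the strand of its gene with the matched letters in capitals, and the 2 matches in Atf3 do not overlap. The Atf3 stretch covers the 120 bases before the RefSeq start, with the CARE core beginning at position -110 and the second element at -10. The others begin at -193 in Chac1, at 15 in Trib3, and at -23 in Asns. Positions count from the RefSeq starts, which differ from the ends of the GENCODE genes given with the members, so that the Trib3 and Chac1 matches lie upstream of the GENCODE genes and those of Asns and Atf3 lie inside theirs.
Atf3, chr1:191183334-191183453, minus strand: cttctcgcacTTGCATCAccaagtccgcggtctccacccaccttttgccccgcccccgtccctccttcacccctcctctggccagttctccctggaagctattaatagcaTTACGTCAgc
Chac1, chr2:119351038-119351067, plus strand: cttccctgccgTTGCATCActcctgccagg
Trib3, chr2:152344028-152344057, minus strand: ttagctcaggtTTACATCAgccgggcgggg
Asns, chr6:7693214-7693243, minus strand: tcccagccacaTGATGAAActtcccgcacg
A match describes these letters only and is no measurement of binding.

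Each library held between 40020424 and 49894856 gene reads (median 46618609), and RNA integrity numbers (RIN) ranged from 7 to 9.7. Reads were mapped to the C57BL/6J genome, and the median share of unmapped reads ran from 2.2% in A/J to 12.5% in CAST/EiJ. In PWK/PhJ, the share also differed by diet without overlap, from 2.22% to 4.23% on CD and from 5.48% to 8.73% on WD. The part of mapping in differences between strains, or between diets in PWK/PhJ, was not tested. Levels are given as CPM, the usual depth-scaled read count of a gene, after TMM scaling. Depth was not the same for all members. Atf4 had 1830 to 7292 reads per mouse, whereas Phgdh had 2 to 161 (median 12), so Phgdh values are the least precise. Per kilobase of exon, group means of Atf4 lay between 22.3 and 43.7 CPM per kb. Trib3 came next by the median over the 14 groups (4.75 CPM per kb), followed by Ddit3 (3.29), Chac1 (2.75), Sesn2 (2.69), Atf3 (1.02), Asns (0.907), Mthfd2 (0.534), Psat1 (0.259), and Phgdh (0.118).

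Both C57BL/6J groups held 1 mouse that stood apart from the rest in several members. For the members called in C57BL/6J, the diet effect in that strain is given with and without these mice. Comparisons with other strains include both mice unless stated otherwise. On CD, replicate 2 had Ddit3 at 30.9 CPM, where the other 7 mice lay at or below 6.56, and Trib3 at 48.9, where the others lay at or below 11.6. The same mouse was highest of its group in Atf4, Atf3, Asns, Phgdh, Psat1, Mthfd2, Chac1, and Sesn2. On WD, replicate 3 was highest of its group in Atf4, Atf3, Ddit3, Trib3, Asns, Phgdh, Psat1, and Mthfd2, with Asns at 5.25 CPM against at most 1.74 in the others. These 2 livers were also the highest of their groups in summed cholangiocyte markers (6 genes, mostly Spp1), with 437 CPM against a group median of 54.5 on CD and 408 against 111 on WD. Summed stellate cell and fibroblast markers (8 genes) were 958 against a median of 374 and 1197 against 601. Their RIN values of 8.7 and 8.8 and their depth were within the range of the other C57BL/6J mice. The part of these markers in the members' levels was not tested. On CD, replicates 4 and 6 were also high in Asns, Phgdh, Psat1, and Mthfd2 but had Ddit3 at 5.76 and 6.06 CPM, near the group median of 5.67, as the map of the C57BL/6J mice shows. Their cholangiocyte sums were 69.8 and 199 CPM.

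**Figure D1:**
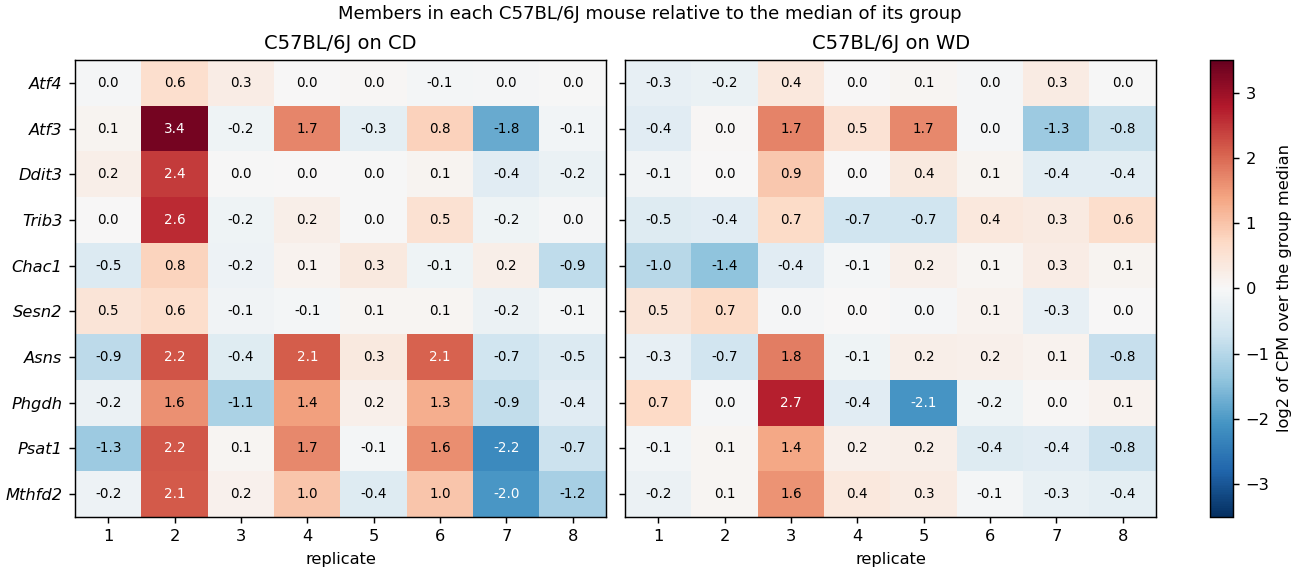
Log2 of each member's CPM over the median of its group in the 8 CD (left) and 8 WD (right) C57BL/6J mice; columns are mice and rows are members. On CD, replicate 2 was 3.35 above the median in Atf3 and 2.61 in Trib3, and replicates 4 and 6 were 2.13 and 2.07 above it in Asns.

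To ask whether WD-TN changed the ISR genes in each strain, WD was compared with CD in a limma-voom fit. Atf4 was downregulated in all 7 strains and Chac1 was upregulated in 4, whereas Ddit3, Trib3, and Sesn2 passed the threshold in none. Of the 70 comparisons of a member in a strain, 20 were called (28.6%, where 19.9% of all gene by strain comparisons were), of which 10 were higher on WD-TN (14.3%, where 10.5% of all were) and 10 were lower (14.3%, where 9.44% of all were). The called members numbered 6 of 10 in C57BL/6J (26.2% of all genes tested), 5 in PWK/PhJ (29.6%), 3 in 129S1/SvImJ (28.0%), 2 in DBA/2J (18.0%), 2 in A/J (9.03%), 1 in WSB/EiJ (8.94%), and 1 in CAST/EiJ (19.5%), where the percentages are the background of genes called in either direction. Averaged over the strains, Atf3 and Chac1 were higher (2 of 10, with 27.1% of all genes) and Atf4 was lower (1 of 10, with 24.5% of all genes). The diet effect differed between strains in an F test for Atf3, Asns, Phgdh, and Psat1 (4 of 10, with 37.5% of all genes). When the effect of each strain was set against the average of the remaining 6, 8 of 70 comparisons passed (11.4%, where 7.28% of all did). These were Asns, Phgdh, and Psat1 in both C57BL/6J and PWK/PhJ, and Atf3 and Chac1 in CAST/EiJ. For Asns, Phgdh, and Psat1, C57BL/6J and PWK/PhJ enter each other's average with effects of opposite sign, so their calls are not independent. The median log2 fold change over all genes was between -0.0106 and 0.0169 in every strain.

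**Figure D2:**
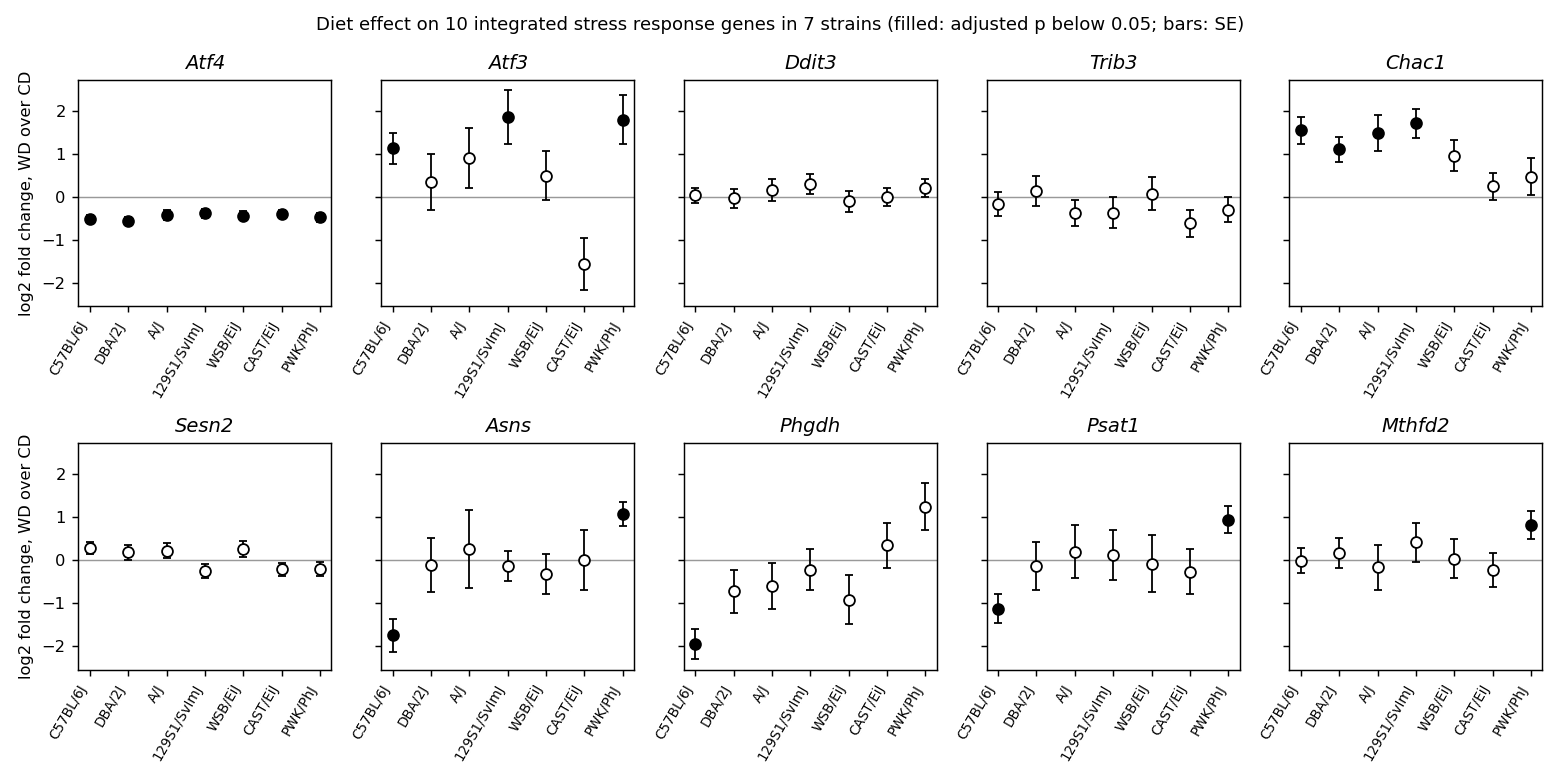
Log2 fold change of WD over CD (y axis) for each member in 7 strains (x axis), with SE as bars and filled points at an adjusted p below 0.05. Atf4 lay between -0.56 and -0.38 in all strains, and Asns ran from -1.74 in C57BL/6J to 1.07 in PWK/PhJ.

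Atf4 (ENSMUSG00000042406, chr15:80255184-80257541 in GRCm38) encodes the central transcription factor of the response. In C57BL/6J its CD-TN level ran from 77.6 to 123 CPM (median 81.9) and its WD-TN level from 49.6 to 78.1 (median 60.4). DBA/2J had 74.4 to 103 CPM (median 83.7) on CD and 52.3 to 61 (median 59.4) on WD. The 5 A/J mice on CD had 72.4, 68.6, 65.7, 71.8, and 72.3 CPM, and those on WD had 44.6 to 58.2 (median 53.5). In these 3 strains, the WD mice lay below the lowest CD mouse, except for 1 of 8 in C57BL/6J. In 129S1/SvImJ, the range fell from 69.7 to 84.9 CPM (median 74.9) to 52.7 to 64.6 (median 58.4). WSB/EiJ had 93.3 to 120 CPM (median 98.9) on CD and 72.4 to 81 (median 76.4) on WD. PWK/PhJ had 80.3 to 105 CPM (median 88.2) on CD and 55.6 to 75.2 (median 62.5) on WD. The diets did not overlap in any of these 3 strains, which made 5 strains in all with every WD mouse below every CD mouse. CAST/EiJ was the exception with wide overlap, since CD mice ran from 66 to 136 CPM (median 108) and WD mice from 63.2 to 97.1 (median 70.2). The log2 fold change was -0.51 (SE 0.09, adjusted p = 1.4e-05) in C57BL/6J, -0.56 (SE 0.10) in DBA/2J, -0.42 (SE 0.11) in A/J, -0.38 (SE 0.10) in 129S1/SvImJ, -0.43 (SE 0.11) in WSB/EiJ, -0.39 (SE 0.10) in CAST/EiJ, and -0.47 (SE 0.10) in PWK/PhJ. Averaged over strains it was -0.45 (SE 0.04, adjusted p = 4.6e-17). No difference of this effect between strains was detected (F test, adjusted p = 0.9). Without the 2 C57BL/6J mice that stood apart, the effect in C57BL/6J was -0.49 (SE 0.09). In a fit of CAST/EiJ alone, its effect of -0.40 had an adjusted p of 0.091. Hepatocyte markers moved the same way as Atf4. Their summed level (8 genes) was 100098 to 219207 CPM on CD and 71985 to 158026 on WD. It was lower on WD without overlap in 5 strains, C57BL/6J, A/J, WSB/EiJ, CAST/EiJ, and PWK/PhJ. In DBA/2J and 129S1/SvImJ, where Atf4 did not overlap between diets, these sums did overlap. By gene, 22 of 56 gene by strain comparisons were lower (39.3%, where 9.44% of all were). The part of this in the Atf4 result was not tested.

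Atf3 (ENSMUSG00000026628, chr1:191170296-191218039), a transcription factor induced by many stresses, differed in its diet response between strains (F test, adjusted p = 0.0017). In 129S1/SvImJ, it ran from 0.51 to 1.26 CPM (median 0.818) on CD and from 2.18 to 4.11 (median 3.2) on WD, with no overlap. PWK/PhJ had 0.992 to 1.63 CPM (median 1.2) on CD and 1.91 to 5.78 (median 4.78) on WD, again with no overlap. The log2 fold changes were 1.86 (SE 0.63, adjusted p = 0.019) and 1.80 (SE 0.57, adjusted p = 0.01). C57BL/6J had the highest WD-TN levels, and ran from 0.717 to 25 CPM (median 2.45) on CD and from 2.77 to 22 (median 6.61) on WD, with most of the range shared. Its log2 fold change of 1.13 (SE 0.36, adjusted p = 0.014) rose to 1.34 (adjusted p = 0.0024) without both mice that stood apart. It fell to 0.90 (adjusted p = 0.058) without WD replicate 3 alone, to 0.93 (adjusted p = 0.053) without WD replicate 5, to 0.85 (adjusted p = 0.067) without CD replicate 7, and to 0.84 (adjusted p = 0.086) with cohort in the model. In edgeR it was 0.72 (adjusted p = 0.19), so the call in C57BL/6J depended on these choices. Markers of macrophages and Kupffer cells (8 genes) were higher in the same strains, with 5 of the genes called in both 129S1/SvImJ and PWK/PhJ and 4 of them in C57BL/6J, whereas CAST/EiJ had 1. Over all genes, the share called in either direction was 28.0% in 129S1/SvImJ, 29.6% in PWK/PhJ, 26.2% in C57BL/6J, and 19.5% in CAST/EiJ. These shares count lower genes too, and 10.5% of all gene by strain comparisons over the 7 strains were higher. The summed level of these markers was 44 to 512 CPM on CD and 148 to 775 on WD over all strains, and their part in the Atf3 result was not tested. The lowest of these, 44 CPM, was PWK/PhJ CD replicate 5, and the next CD mouse had 157. That mouse was also low in summed endothelial markers, with 219 CPM against 348 to 421 in the other 5 mice of its group.

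In CAST/EiJ, Atf3 went in the other direction without reaching the threshold. Its 7 CD mice had 1, 1.09, 5.39, 0.292, 6.63, 10.6, and 10.3 CPM, and its 8 WD mice had 0.588 to 1.49 (median 0.844). Of the CD mice, 4 were above every WD mouse and 1 was below every WD mouse. This gave a log2 fold change of -1.56 (SE 0.61, adjusted p = 0.062), which was below the average effect of the remaining 6 strains (difference -2.65, adjusted p = 0.003). With edgeR the log2 fold change was -2.39 (adjusted p = 3.6e-05) and with DESeq2 it was -2.42, and it also passed the threshold without CD replicate 1 (-1.80, adjusted p = 0.026), replicate 2 (-1.78, adjusted p = 0.03), or replicate 4 (-2.10, adjusted p = 0.0041). With cohort in the model, it was -1.42 (adjusted p = 0.11). In the same order, Atf4 in the CD mice was 76.2, 66, 108, 76.9, 114, 136, and 128 CPM. The 4 mice high in Atf3 were those high in Atf4. Summed immediate early genes (14 genes, Fos, Jun, Egr1, and others that rise within minutes of a stimulus) were 194, 294, 620, 352, 541, 519, and 472 CPM in the same mice. Their part in the Atf3 values was not tested. In WSB/EiJ, DBA/2J, and A/J, the log2 fold changes of 0.50 (SE 0.58), 0.35 (SE 0.66), and 0.91 (SE 0.70) did not pass the threshold, although the A/J value passed in a fit of that strain alone (0.92, adjusted p = 0.043). Gm24748 overlaps Atf3 on the opposite strand.

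Ddit3 (ENSMUSG00000025408, chr10:127290774-127296288), which encodes CHOP, the factor tied to apoptosis in prolonged stress, did not pass the threshold in any strain. The limma-voom, edgeR, and DESeq2 tests called 0 of 7 strains, and 0 strains had an unadjusted p below 0.05. Medians on CD-TN and WD-TN were 5.67 and 6.74 CPM in C57BL/6J and 5.43 and 6.57 in PWK/PhJ, and the groups of both strains overlapped. Effects ran from -0.10 (SE 0.24) in WSB/EiJ to 0.30 (SE 0.24) in 129S1/SvImJ, with a mean of 0.08 (SE 0.08, adjusted p = 0.41). Without C57BL/6J CD replicate 2, the log2 fold change in C57BL/6J was 0.38 (adjusted p = 0.013) and the mean over strains was 0.13 (adjusted p = 0.033). Without both C57BL/6J mice that stood apart, the values were 0.24 (adjusted p = 0.11) and 0.11 (adjusted p = 0.047). The 129S1/SvImJ value passed with sample quality weights (0.33) and in a fit of that strain alone (0.32). In the table, Ddit3 overlaps Gm4189 and Mars (group means of 42.1 to 64 CPM) on the opposite strand, and the strand setting of the counts is not given in the sources used here, so reads from them cannot be told apart from those of Ddit3.

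Trib3 (ENSMUSG00000032715, chr2:152337422-152344032), a pseudokinase that restrains ATF4 and AKT, also passed the threshold in 0 of 7 strains with limma-voom, edgeR, and DESeq2, and in 0 at an unadjusted p below 0.05. Its log2 fold change ran from -0.61 (SE 0.32, adjusted p = 0.18) in CAST/EiJ to 0.14 (SE 0.34) in DBA/2J. Its mean over strains was -0.23 (SE 0.12, adjusted p = 0.12) and passed the threshold in edgeR at -0.31 (adjusted p = 0.039). Trib3 spread widely within groups. CAST/EiJ mice on CD ran from 5.35 to 26.8 CPM (median 12.4), and DBA/2J mice on WD ran from 4.03 to 20.7 (median 8.98). A/J had the highest group mean on CD, with mice at 24.8, 22.4, 15.5, 18.7, and 14.6 CPM.

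Chac1 (ENSMUSG00000027313, chr2:119351229-119354381) encodes an enzyme that degrades glutathione and is a target of ATF4, ATF3, and CHOP. It was upregulated on WD-TN in 4 of 7 strains, whereas Atf4 was downregulated in all 7. In C57BL/6J, it ran from 1.11 to 3.53 CPM (median 2.04) on CD and from 2.76 to 8.77 (median 7.29) on WD, where 7 of 8 mice were above every CD mouse. 129S1/SvImJ had 1.38 to 3.65 CPM (median 1.94) on CD and 3.73 to 12.1 (median 7.61) on WD, with no overlap. The A/J mice on CD had 1.57, 1.74, 3, 1.85, and 1.4 CPM, and those on WD had 3.99 to 7.41 (median 4.71). These 3 strains had the largest effects, with log2 fold changes of 1.55 (SE 0.31, adjusted p = 6.1e-05), 1.72 (SE 0.34, adjusted p = 6.1e-05), and 1.48 (SE 0.42, adjusted p = 0.013). DBA/2J rose from 3.35 to 7.78 CPM (median 3.52) to 4.88 to 12.7 (median 11), a log2 fold change of 1.11 (SE 0.29, adjusted p = 0.0035). WSB/EiJ had 1.59 to 5.33 CPM (median 3.56) on CD and 3.33 to 16.6 (median 5.53) on WD, and its log2 fold change of 0.96 (SE 0.36, adjusted p = 0.077) missed the threshold. It passed in edgeR at 1.02 (adjusted p = 0.034) and without WD replicate 2 at 1.11 (adjusted p = 0.043). In the remaining strains the diets overlapped widely. CAST/EiJ had medians of 3.36 and 5.07 CPM and a log2 fold change of 0.25 (SE 0.31), which was below the average of the remaining 6 strains (difference -0.97, adjusted p = 0.048). PWK/PhJ had medians of 1.58 and 2.02 CPM and a log2 fold change of 0.47 (SE 0.43). Over the strains, the mean was 1.08 (SE 0.13, adjusted p = 1.2e-10), positive in 7 of 7 strains. The F test of differences between strains gave an adjusted p of 0.057, and 0.043 without the 2 C57BL/6J mice that stood apart. Chac1 in C57BL/6J kept its size without them, at 1.70 (SE 0.34).

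**Figure D3:**
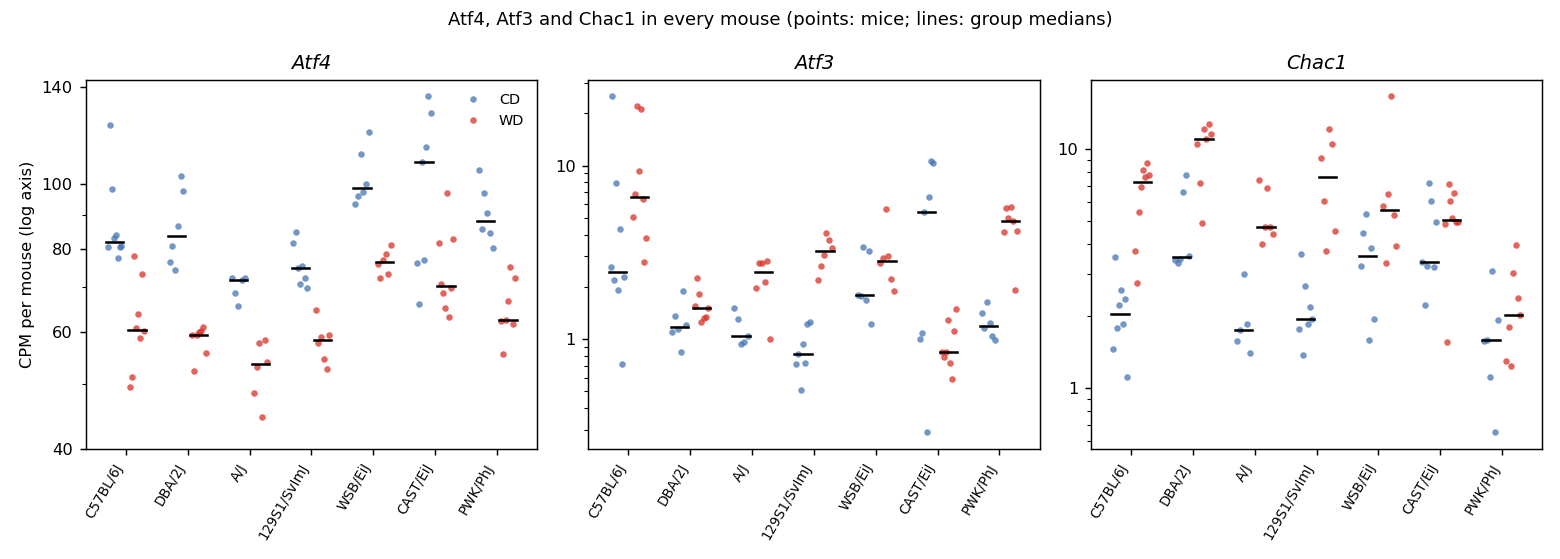
CPM on a log axis in every mouse for Atf4, Atf3, and Chac1 by strain, with CD in blue, WD in red, and lines at group medians. Atf4 was lower on WD in each strain, Chac1 medians were higher on WD in each strain, and Atf3 medians fell only in CAST/EiJ, from 5.39 to 0.844.

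Sesn2 (ENSMUSG00000028893, chr4:132492032-132510501), a leucine sensor that inhibits mTORC1, was called in 0 of 7 strains by limma-voom, edgeR, and DESeq2, and only C57BL/6J had an unadjusted p below 0.05. There, levels ran from 7.74 to 13.8 CPM (median 8.93) on CD and from 8.92 to 17.3 (median 10.9) on WD, a log2 fold change of 0.29 (SE 0.14, adjusted p = 0.1) that became 0.38 (adjusted p = 0.033) without CD replicate 2 and 0.40 (adjusted p = 0.031) without both mice that stood apart. It was negative in 129S1/SvImJ at -0.24 (SE 0.16), CAST/EiJ at -0.21 (SE 0.15), and PWK/PhJ at -0.20 (SE 0.17), and none of these passed the threshold. The F test gave an adjusted p of 0.052, and 0.024 without the 2 C57BL/6J mice. Gm12981 overlaps Sesn2 on the same strand.

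Of the enzymes of amino acid synthesis, Asns and Psat1 fell with WD-TN in C57BL/6J and rose in PWK/PhJ, and Phgdh fell in C57BL/6J. Asns (ENSMUSG00000029752, chr6:7675169-7693254) encodes asparagine synthetase, which makes asparagine from aspartate with glutamine as the nitrogen donor. The 8 C57BL/6J mice on CD had 1.91, 16.4, 2.66, 15.7, 4.5, 15, 2.19, and 2.58 CPM. On WD they had 1.24, 0.945, 5.25, 1.37, 1.74, 1.73, 1.65, and 0.856. The CD mice thus fell into 3 near 15 to 16 and 5 at 4.5 or below, and 7 of 8 WD mice were below the lowest CD mouse. In PWK/PhJ, CD mice had 7.98, 6.4, 11.4, 5.13, 6.46, and 6.54 CPM, and WD mice had 19.8, 18.7, 15.4, 20.8, 16.8, 8.79, and 8.86. Of these WD mice, 5 of 7 were above every CD mouse. The log2 fold change was -1.74 (SE 0.38, adjusted p = 2.6e-04) in C57BL/6J and 1.07 (SE 0.28, adjusted p = 0.0019) in PWK/PhJ. Set against the average of the remaining 6 strains, the differences were -1.87 (adjusted p = 0.0071) and 1.41 (adjusted p = 0.005). The effect differed between strains in the F test (adjusted p = 3.8e-04). In the other 5 strains, the log2 fold change lay between -0.32 (SE 0.46) in WSB/EiJ and 0.26 (SE 0.91) in A/J. Without the 2 C57BL/6J mice that stood apart, it was -1.76 (adjusted p = 2.8e-04) in C57BL/6J. In a fit of C57BL/6J alone, it was -1.75 with an adjusted p of 0.058. Stellate cell and fibroblast markers (4 of 8 genes) and macrophage markers (4 of 8) were higher on WD in C57BL/6J, and hepatocyte markers (3 of 8) were lower. Over all genes, 26.2% were called in either direction in that strain. The part of these markers in the Asns result was not tested.

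Psat1 (ENSMUSG00000024640, chr19:15904678-15947337), the aminotransferase of serine synthesis, changed in the same direction as Asns in both strains. In C57BL/6J, CD mice had 1.75, 18.9, 4.37, 13.5, 3.99, 12.9, 0.886, and 2.5 CPM and WD mice 1.28 to 5.52 (median 2.16). The same 3 CD mice that were high in Asns were high in Psat1. The remaining CD mice ran from 0.886 to 4.37 CPM, and no WD mouse was below the lowest CD mouse. In PWK/PhJ, CD mice had 2.73, 2.75, 7, 2.77, 2.72, and 4.56 CPM and WD mice 3.56 to 10.5 (median 7.18). The log2 fold changes were -1.12 (SE 0.33, adjusted p = 0.0062) and 0.95 (SE 0.32, adjusted p = 0.019). Against the other 6 strains, the differences were -1.26 (adjusted p = 0.048) and 1.16 (adjusted p = 0.033), and the F test gave an adjusted p of 0.015. Without the 2 C57BL/6J mice that stood apart, the value in C57BL/6J was -1.02 (adjusted p = 0.0091), and in a fit of C57BL/6J alone it was -1.13 (adjusted p = 0.23). The first of these fits keeps CD replicates 4 and 6, which were also high in Psat1. In PWK/PhJ, it missed the threshold without WD replicate 2 (0.83, adjusted p = 0.059) and in edgeR (0.90, with an adjusted p that rounds to 0.05). Elsewhere the log2 fold change lay between -0.26 (SE 0.52) in CAST/EiJ and 0.20 (SE 0.62) in A/J. Gm3329 overlaps Psat1 on the opposite strand.

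Phgdh (ENSMUSG00000053398, chr3:98313170-98339990) catalyzes the first step of serine synthesis from a glycolytic intermediate and was the least expressed member. In C57BL/6J, it ran from 0.412 to 2.7 CPM (median 0.884) on CD and from 0.0581 to 1.59 (median 0.242) on WD, where 7 of 8 mice were below every CD mouse. Its log2 fold change of -1.95 (SE 0.35, adjusted p = 1.2e-05) was the most negative of the 70 comparisons, and it was -2.14 (adjusted p = 1.6e-06) without the 2 mice that stood apart. In PWK/PhJ, it ran from 0.0402 to 0.221 CPM (median 0.136) on CD and from 0.107 to 0.53 (median 0.299) on WD. That gave a log2 fold change of 1.25 (SE 0.54, adjusted p = 0.073), with 6 of 7 WD mice above every CD mouse. It became 1.46 (adjusted p = 0.031) without WD replicate 6 and passed the threshold in 5 other settings (adjusted p = 0.0075 to 0.049), edgeR and DESeq2 among them. Against the other 6 strains, the differences were -1.81 (adjusted p = 0.0043) in C57BL/6J and 1.92 (adjusted p = 0.014) in PWK/PhJ, and the F test gave an adjusted p of 0.0022. The mean over strains was -0.40 (SE 0.19, adjusted p = 0.072) and passed the threshold without any 1 of 4 mice, at -0.44 (adjusted p = 0.047) without PWK/PhJ CD replicate 1, -0.43 (adjusted p = 0.049) without C57BL/6J CD replicate 3, -0.46 (adjusted p = 0.025) without C57BL/6J WD replicate 3, and -0.44 (adjusted p = 0.049) without WSB/EiJ CD replicate 6.

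Mthfd2 (ENSMUSG00000005667, chr6:83305691-83325908), a mitochondrial folate enzyme that links serine to one-carbon units, was upregulated in PWK/PhJ. CD mice had 2.31, 2.16, 2.46, 1.88, 2.2, and 1.96 CPM and WD mice 2.92 to 5.78 (median 3.72), with no overlap. Its log2 fold change of 0.83 (SE 0.33, adjusted p = 0.047) was close to the threshold. It missed the threshold in edgeR (0.87, adjusted p = 0.054) and with no filter beyond 1 count in any mouse (0.83, adjusted p = 0.091). It also missed it without any 1 of 10 of the 13 mice, at adjusted p-values of 0.055 to 0.099. In C57BL/6J, where the other 3 enzymes fell, Mthfd2 had a log2 fold change of -0.01 (SE 0.29), with medians of 2.5 CPM on CD and 2.32 on WD. No difference between strains was detected (F test, adjusted p = 0.44), so the C57BL/6J and PWK/PhJ effects are not shown to differ. Gm43890 overlaps Mthfd2 on the same strand.

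**Figure D4:**
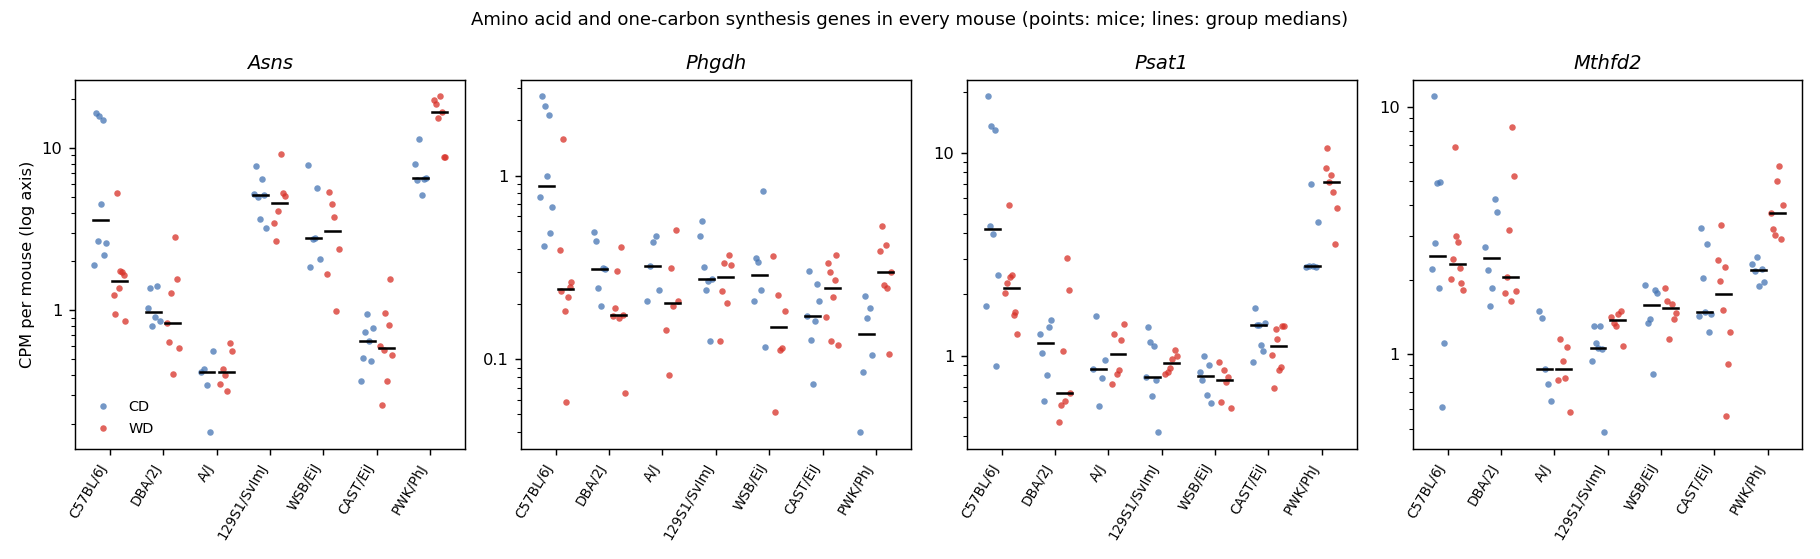
CPM on a log axis in every mouse for Asns, Phgdh, Psat1, and Mthfd2 by strain, with CD in blue, WD in red, and lines at group medians. C57BL/6J medians of Asns went from 3.58 to 1.51 and PWK/PhJ medians from 6.5 to 16.8.

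Markers of other cells moved with diet in PWK/PhJ. Summed cholangiocyte markers were 64.6 to 140 CPM on CD and 159 to 528 on WD, and 5 of 6 of these genes were upregulated. Summed stellate cell and fibroblast markers were 141 to 223 CPM on CD and 313 to 695 on WD, with 5 of 8 genes upregulated. Over all genes, 29.6% were called in either direction in PWK/PhJ. WD replicate 6, which had the lowest Atf3 (1.91 CPM), Asns (8.79), Phgdh (0.107), Psat1 (3.56), and Mthfd2 (2.92) of its group, also had the lowest sums of both lists, 159 and 313 CPM. Over all strains, summed cholangiocyte markers ran from 17.4 to 437 CPM on CD and from 25.6 to 528 on WD, and WD was above CD without overlap in 4 strains. The sum was mostly Spp1, which macrophages also express. In PWK/PhJ, Spp1 had group means of 98.8 and 339 CPM, and the other 5 genes had at most 10.5. By gene, 8 of 42 comparisons were higher (19%), of which 5 were in PWK/PhJ, and 1 was lower (2.38%). Of all gene by strain comparisons, 10.5% were higher and 9.44% were lower. Of the cholangiocyte genes, Cftr alone was at 0 reads, in 1 mouse. In 129S1/SvImJ, the sum was 21.5 to 43.2 CPM on CD and 59.8 to 102 on WD, with 1 of 6 genes upregulated (Spp1, group means of 24.9 and 70.3 CPM), and Asns had medians of 5.13 and 4.57 CPM on CD and WD. The part of these cells in the results in PWK/PhJ was not tested. The other lists were called less evenly. T and NK cell markers (7 genes) were higher in 8 of 49 gene by strain comparisons (16.3%), of which 7 were in 129S1/SvImJ, and lower in 1 (2.04%). Neutrophil markers (6 genes) were higher in 11 of 42 (26.2%), with Ly6g at 0 reads in 47 mice. B and plasma cell markers (6 genes) were lower in 1 of 42 (2.38%). Endothelial markers (7 genes) were higher in 5 of 49 (10.2%) and lower in 8 (16.3%).

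Levels of the members also differed between strains on the same diet. All 10 differed on CD-TN in an F test over the 7 strains, as did 93.7% of all genes tested. On WD-TN, 8 did, where 93.9% of all genes did, and Ddit3 (adjusted p = 0.1) and Phgdh (adjusted p = 0.63) did not pass. The spread between strains on CD was largest for Asns, with a ratio of 19.7 between the means of C57BL/6J (7.63 CPM) and A/J (0.387). Between the highest and the lowest median, those of PWK/PhJ (6.5 CPM) and A/J (0.416), the ratio was 15.6. The C57BL/6J median was 3.58 CPM. In increasing order, mean CPM of Asns on CD was 0.387 (A/J), 0.638 (CAST/EiJ), 1.07 (DBA/2J), 3.83 (WSB/EiJ), 5.21 (129S1/SvImJ), 7.32 (PWK/PhJ), and 7.63 (C57BL/6J). The fitted log2 difference of the last 2 strains was -0.41 (adjusted p = 0.26), with PWK/PhJ the higher on that scale. Only 1 step in that order was larger than the spread, between DBA/2J and WSB/EiJ (log2 difference 1.66, adjusted p = 0.01, where 48.0% of gene by strain pair comparisons on CD were called). On WD, C57BL/6J dropped to the fourth place with 1.85 CPM, and the single step past the threshold was from 129S1/SvImJ (4.96 CPM) to PWK/PhJ (15.6), a log2 difference of 1.70 (adjusted p = 1.9e-06, with 50.4% called on WD).

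For the enzymes of serine synthesis, C57BL/6J had the highest mean on CD. Phgdh was 1.32 CPM there and 0.135 to 0.347 in the other strains, and the step from WSB/EiJ was past the threshold (log2 difference 1.85, adjusted p = 8.6e-05). Psat1 was 0.785 to 1.3 CPM in 5 strains, 3.76 in PWK/PhJ, and 7.35 in C57BL/6J, where the step from CAST/EiJ to PWK/PhJ passed (1.44, adjusted p = 0.0044) and that from PWK/PhJ to C57BL/6J did not (0.48, adjusted p = 0.21). On WD, Psat1 was highest in PWK/PhJ at 7.02 CPM, above C57BL/6J at 2.41 (1.59, adjusted p = 1.4e-05), which was above DBA/2J at 1.21 (1.22, adjusted p = 0.025). For Atf4, Atf3, Ddit3, Trib3, Chac1, Sesn2, and Mthfd2, no neighbours in the order of CD means differed past the threshold. Their ratios of the highest to the lowest CD mean were 1.47 for Atf4 (WSB/EiJ over A/J), 6.65 for Atf3 (C57BL/6J over 129S1/SvImJ), 2.28 for Ddit3, 2.59 for Trib3 (A/J over WSB/EiJ), 2.85 for Chac1 (DBA/2J over PWK/PhJ), 1.57 for Sesn2, and 3.57 for Mthfd2. On WD, neighbours differed for Atf3 between PWK/PhJ and C57BL/6J (0.83, adjusted p = 0.043), for Chac1 between PWK/PhJ and CAST/EiJ (1.20, adjusted p = 0.0016), and for Mthfd2 between CAST/EiJ and C57BL/6J (0.77, adjusted p = 0.041). C57BL/6J CD replicate 2 enters the CD means, as do replicates 4 and 6, which were also high in Asns, Phgdh, and Psat1. WD replicate 3 enters the WD means, and the steps between strains were not tested without any of these mice. For Ddit3, the ratio of CD medians was 1.51.

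Within groups, the members did not rise and fall as a single block. Pearson's r of log2 CPM after removing group means was computed over 93 mice for the 45 pairs and had a median of 0.24 (range -0.19 to 0.73). The highest values were 0.73 for Asns and Psat1 and 0.73 for Psat1 and Mthfd2, and Phgdh and Psat1 had 0.52. Among the factors, r was 0.56 for Atf3 and Ddit3 and 0.51 for Atf4 and Atf3. Atf4 and Asns had 0.15, and Atf4 and Trib3 had -0.06. Without the 2 C57BL/6J mice that stood apart, the median fell to 0.14, and without C57BL/6J altogether it was 0.09, whereas Asns and Psat1 had 0.69 and 0.59. In the same order, Atf3 and Ddit3 had 0.40 and 0.27, Phgdh and Psat1 had 0.44 and 0.37, and Atf4 and Atf3 had 0.42 and 0.52. These coefficients are descriptions over mice that share libraries of the same kind, and low counts of Phgdh limit its values.

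**Figure D5:**
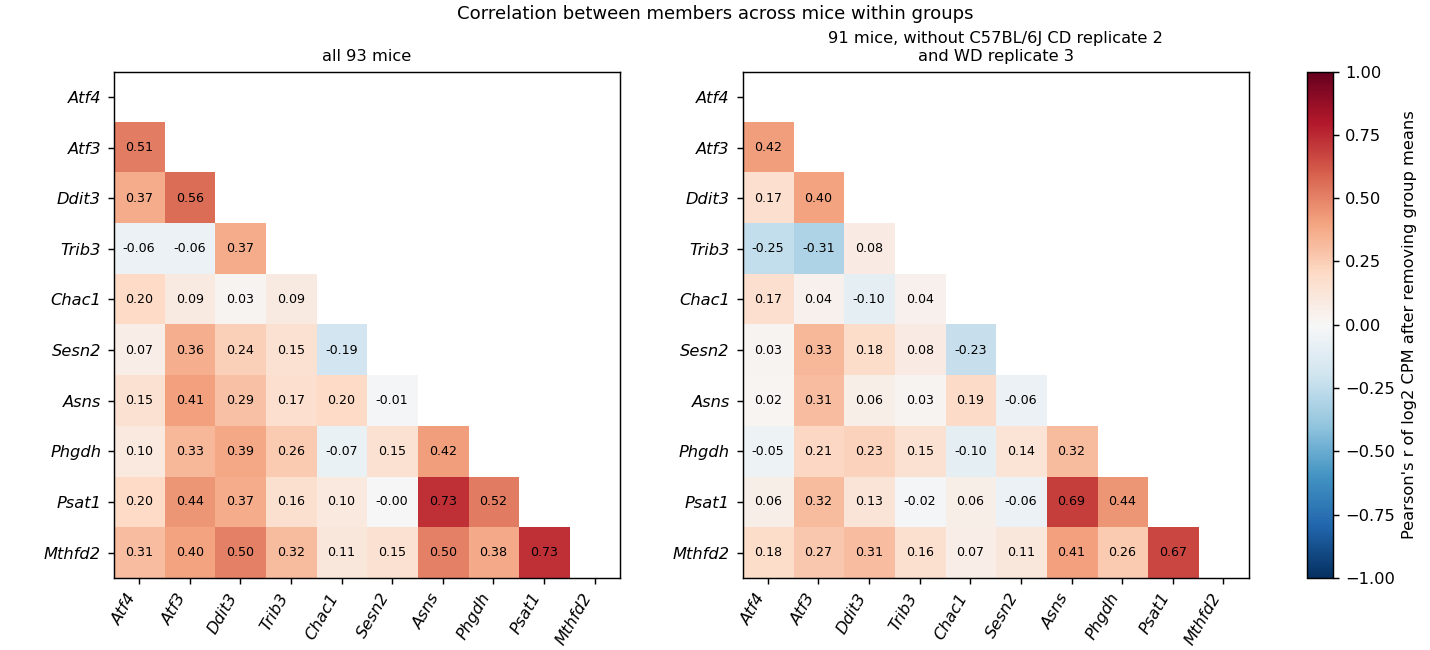
Pearson's r between members after removing group means, over all 93 mice (left) and over 91 without the 2 C57BL/6J mice that stood apart (right); rows and columns are members. Asns with Psat1 and Psat1 with Mthfd2 had 0.73 over all mice and 0.69 and 0.67 without the 2 mice.

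Outside the members, the genes with the highest median r to all 10 were Tpm4 (0.51), Arhgef2 (0.51), App (0.51), Adamtsl2 (0.49), Tceal9 (0.48), and Col6a3 (0.47). Without the 2 C57BL/6J mice, these values were 0.27 to 0.34. Without all C57BL/6J mice, they were 0.28 for Tpm4 and 0.13 to 0.16 for the others. The gene most like a single member was Sars for Mthfd2 (0.76), Golph3l for Trib3 (0.75), Gars for Psat1 (0.72) and Asns (0.61), Impact for Atf3 (0.72), Prkab2 for Ddit3 (0.69), 2310015A10Rik for Atf4 (0.63), Foxq1 for Chac1 (0.55), App for Phgdh (0.53), and Htra1 for Sesn2 (0.52). Without the 2 C57BL/6J mice and without all C57BL/6J mice, the value fell to 0.45 and 0.31 for Prkab2 and Ddit3, 0.38 and 0.24 for App and Phgdh, 0.55 and 0.31 for Gars and Asns, and 0.67 and 0.48 for Gars and Psat1. The other 6 values were between 0.54 and 0.77 in both cases. Sars and Gars encode tRNA synthetases for serine and glycine.

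Other genes of the pathway were counted in lists that hold no member, beside a background over the 7 strains of 10.5% of genes higher and 9.44% lower. Genes of tRNA charging (13 genes, of which Xpot is the exportin for tRNA and the rest are synthetases) were lower in 32 of 91 gene by strain comparisons (35.2%). By strain, 8 of 13 were lower in C57BL/6J, 8 in 129S1/SvImJ, 6 in A/J, 4 in WSB/EiJ, 3 in CAST/EiJ, and 3 in PWK/PhJ. In DBA/2J the list's median log2 fold change was 0.12. Xpot was lower in 6 strains (mean log2 fold change -0.24, SE 0.03), Yars in 5 (-0.24, SE 0.03), and Tars in 4 (-0.47, SE 0.05). Among kinases and subunits of the eIF2 machinery (12 genes), 17 of 84 comparisons were lower (20.2%) and 2 were higher, with Eif2s2, the beta subunit of eIF2, lower in 6 strains (-0.18, SE 0.02), Eif2b4 in 2 (-0.19, SE 0.03), and Eif2b1 in 2 with 1 higher (-0.09, SE 0.02). Feedback genes and partners of ATF4 (13 genes) were lower in 12 of 91 (13.2%) and higher in 7 (7.69%). Of these, Ppp1r15a (GADD34), which directs the phosphatase that reverses eIF2 phosphorylation, was lower in 4 strains (-0.33, SE 0.05), Atf5 in 3 (-0.37, SE 0.06), and Batf2 was higher in 3 (0.29, SE 0.10).

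Metabolic and secreted targets were mixed. Genes of serine, glycine, proline, and one-carbon synthesis (22 genes) were higher in 16 of 154 comparisons (10.4%) and lower in 24 (15.6%). Cbs, which joins serine to homocysteine, was lower in 5 strains (-0.35, SE 0.04), whereas Gpt2, an alanine aminotransferase, was higher in 4 (0.20, SE 0.05). Secreted and apoptotic targets (14 genes) were higher in 8 of 98 (8.16%) and lower in 18 (18.4%). Bcl2l11 (BIM), which promotes apoptosis, was lower in 5 strains (-0.44, SE 0.05), Vegfa in 5 (-0.31, SE 0.03), and Fgf21, a hormone secreted by liver under nutrient stress, in 3 (-1.51, SE 0.21). Amino acid transporters (9 genes tested of 10) were higher in 8 of 63 (12.7%) and lower in 5 (7.94%). Slc7a11, the cystine transporter, was higher in 129S1/SvImJ, WSB/EiJ, and PWK/PhJ (log2 fold changes 3.27, 3.01, and 2.58) from group means of at most 0.123 CPM on CD to 1.02, 0.487, and 0.677 on WD, and Slc38a2 was lower in 3 strains (mean -0.64, SE 0.08). Slc38a7 was higher in 2 strains (0.11, SE 0.02).

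Genes of the ATF6 and XBP1 arm (22 genes), the other branch of the unfolded protein response, were higher in 5 of 154 comparisons (3.25%) and lower in 12 (7.79%), of which 6 were in A/J. Derl1 was lower in 4 strains (-0.15, SE 0.02), and Ern1 (-0.34, SE 0.05) and Canx (-0.09, SE 0.02) in 2 each. Glutathione and NRF2 genes (8 genes, with Slc7a11 in both lists) were higher in 18 of 56 comparisons (32.1%) and lower in 1, and included Nqo1 (0.53, SE 0.08) and Srxn1 (0.44, SE 0.07), each higher in 3 strains. Immediate early genes (14 genes) were higher in 12 of 98 (12.2%) and lower in 7 (7.14%). By strain, 4 were higher in each of C57BL/6J, 129S1/SvImJ, and PWK/PhJ, the strains in which Atf3 was called. Over all genes, these strains had 26.2%, 28.0%, and 29.6% called in either direction, which counts lower genes too. The Atf3 call in C57BL/6J depended on the settings. Lower were 2 in each of 129S1/SvImJ, CAST/EiJ, and DBA/2J and 1 in A/J. Of the immediate early genes, Klf6 was higher in 3 strains (0.47, SE 0.08), Fosb in 2 (1.33, SE 0.28), and Fosl2 was higher in 2 and lower in 1 (0.12, SE 0.08). Their summed CPM overlapped between diets in all strains, and their part in the Atf3 result was not tested.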

How the data were processed

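The data analysed here are of 93 male mice. The authors sequenced liver RNA (SMARTER libraries, BGISEQ-500) and mapped reads with STAR to the C57BL/6J genome. The submitters' processing notes name STAR 2.7.1a and the builds GRCm38 and mm10. The deposited values are raw counts, whole numbers of reads per gene and mouse, which the authors did not normalize, with 4 summary lines that were left out of the gene table. The annotation release and the strand setting of the counting are not given in the sources used here. Symbols and gene coordinates came from GENCODE M21 (GRCm38), and promoter windows from RefSeq (GRCm38.p6).

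The raw counts went into limma 3.58.1 (voom), scaled by TMM in edgeR 4.0.16 (R 4.3.3), after filterByExpr with a minimum count of 10. A single model held all 14 groups, with 1 mean per group. Tests were limma's two-sided moderated tests and F tests, adjusted by Benjamini-Hochberg over 19110 genes, with a threshold of 0.05. The contrasts were WD minus CD in every strain, each strain's effect against the average of the remaining 6, the mean effect over strains against 0, and levels between strains (an F test and pairwise contrasts). Correlations used log2 CPM with a prior count of 2. In simulated counts with 200 genes changed 2-fold in C57BL/6J, the fit recovered 193 among 19110 genes, with 5 false calls. The changed genes were drawn only from genes with higher mean counts, in the strain with the most mice. The simulation therefore does not describe recovery for members with few reads or in smaller groups.

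Groups came from the labelled strain and diet, and replicates were numbered in accession order. The labels do not state whether mice were littermates, and p-values measure the spread between mice. The labels also give a cohort (2 per strain, 3 in CAST/EiJ), which was used as an alternative term. Alternatives were other scalings (RLE, upper quartile), 2 other filters, cohort, RIN, sample quality weights, separate fits, edgeR's quasi-likelihood test, DESeq2 1.42.0, and leaving out each of the 93 mice. Leaving out 2 C57BL/6J mice together was chosen after seeing the data.

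The members and lists were chosen with earlier results of these data known. Named genes were the 10 members, up to 3 genes per pathway list called in most strains (ties by the larger mean change), the 6 genes with the highest median correlation with the members (only genes with mean log2 CPM at or above 1), and the gene most correlated with each member. Genes named for their overlap with a member, and the markers Cftr, Ly6g, and Spp1, fall outside this rule. A gene that the rule would name is not reported here.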

Additional observations from a re-analysis of the deposited data

Results flagged for a closer look

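Of 140 groups of mice (10 members, 7 strains, and 2 diets), 18 held a mouse far from the others of its group by Dixon's test. The test flags about 1 in 20 groups of independent, normally distributed values. These values were CPM without logs, and the same mice enter the groups of all 10 members, so the 18 cannot be compared with that rate. In 16 of the 18 the mouse was the highest and in 2 the lowest. C57BL/6J CD replicate 2 accounted for 5, with Atf4 at 123 CPM, Atf3 at 25, Ddit3 at 30.9, Trib3 at 48.9, and Mthfd2 at 11. C57BL/6J WD replicate 3 accounted for 5 more, with Ddit3 at 13 CPM, Asns at 5.25, Phgdh at 1.59, Psat1 at 5.52, and Mthfd2 at 6.87.

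The other 8 were spread over 8 mice. Atf3 was 5.61 CPM in WSB/EiJ WD replicate 3 and as low as 1.91 in PWK/PhJ WD replicate 6. Ddit3 was 7.89 CPM in DBA/2J CD replicate 1. Chac1 was 3 CPM in A/J CD replicate 3, 16.6 in WSB/EiJ WD replicate 4, and as low as 1.55 in CAST/EiJ WD replicate 2. Sesn2 was 25.3 CPM in CAST/EiJ CD replicate 5, where the next mouse had 11.8. Phgdh was 0.827 CPM in WSB/EiJ CD replicate 5.

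The diet effect differed between strains for 4 members, by the limma F test over 7 strains. The adjusted p was 0.0017 for Atf3, 3.8e-04 for Asns, 0.0022 for Phgdh, and 0.015 for Psat1.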

How the results depend on the processing

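Of 80 values (10 members in 7 strains and averaged over them), 23 passed the threshold, and 17 of these did so in every one of the 11 other settings that could give a value and without each mouse in turn. The other 6 were Atf3, Asns, and Psat1 in C57BL/6J, Atf4 in CAST/EiJ, and Psat1 and Mthfd2 in PWK/PhJ. Of the values that missed the threshold, 9 passed it in at least 1 other setting and 7 without at least 1 mouse. No called value changed sign. Comparisons in which the effect in 1 strain differed from the mean of the other 6 numbered 8, but 5 with no filter beyond 1 count, where Psat1 in C57BL/6J and PWK/PhJ and Chac1 in CAST/EiJ were lost, and 4 with at least 10 counts in every mouse, a filter that removed Asns and Phgdh. Leaving out single mice gave 5 to 8, and 5 without PWK/PhJ WD replicate 2 or CD replicate 5. Members lower on WD-TN in the mean over strains numbered 1 and became 2 with quality weights, edgeR, and DESeq2, and without the 2 C57BL/6J mice. Leaving out single mice gave 1 to 2. The added gene was Phgdh with quality weights (-0.41) and without the 2 mice (-0.43), and Trib3 with edgeR (-0.31) and DESeq2 (-0.30). The cause of the other changes was not tested. No paired analysis was possible because replicate numbers follow accession order and no label pairs mice across diets. Reads per mouse limit Phgdh most, with a median of 12.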
